A study of Homo sapiens with 4 samples.

Results

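The E2F family and its DP partners were followed in RNA-seq libraries of UMSCC74B cells, which the labels describe as HNSCC, a head and neck squamous cell carcinoma line. The members were the 8 E2F genes E2F1 to E2F8 and the 2 DP genes TFDP1 and TFDP2, taken by name from the gene tables, so that 10 genes were examined of 18917 protein-coding names. Each member had a single entry, and all 10 passed the filter on low values, as did 11896 genes in all. The design held 2 libraries from wild-type cells given control shRNA and 2 libraries labelled PRMT5 KD, from cells given PRMT5 shRNA, all grown for 72 h without antibiotic after the shRNA was introduced. The labels name plasmid transfection, whereas the methods of the study name lentiviral particles. One cell line was used, and no label says that the 2 libraries of a group came from separate cultures, so that p-values measure the spread between these libraries, which may be technical.

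E2F proteins bind DNA at the promoters of genes needed to enter and pass through S phase. E2F1, E2F2 and E2F3 are grouped as activators, E2F4, E2F5 and E2F6 as typical repressors, and E2F7 and E2F8 as atypical repressors, which bind DNA without a DP protein. E2F1 to E2F6 pair with a DP protein, encoded here by TFDP1 and TFDP2, and pocket proteins of the RB family hold E2F1 to E2F5 in check until cyclin-dependent kinases phosphorylate them. PRMT5, a methyltransferase that places symmetric dimethyl marks on arginine, is known to methylate E2F1 protein, a step that transcript counts do not measure.

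The library labels were examined first. PRMT5, the gene the shRNA targets, had 28.8 and 25.7 RPKM (reads per kilobase of exon, scaled to library size by TMM) in control and 40.3 and 45.7 RPKM in the libraries labelled PRMT5 KD. It was higher under that label, with a log2 fold change of 0.66 (SE 0.12) and an FDR of 0.00545 by edgeR, and the call was lost without control 2 (0.58, FDR 0.0675). The study judged silencing of the protein by immunoblot and describes it as effective, which transcript counts do not measure. Every direction below is given for the libraries labelled PRMT5 KD, since the transcript does not show the loss. The defining squamous and epithelial markers KRT5, KRT14, KRT6A and CDH1 stood at or near 0, with at most 0.46 CPM (counts scaled to library size but not to length) for KRT14 in any library, and 3 of 10 such markers passed the filter, their list summing to 60.3 to 77.3 CPM. Of 7 fibroblast markers, 6 were tested and all 6 were called lower, beside 24.3% of all genes tested (thresholds below). The 7 genes summed to 633 and 733 CPM in control and 87.8 and 97.4 CPM under the label. Of the 4 endothelial markers only PECAM1 was tested, and it fell by 5.27 on the log2 scale. Below the filter, CDH5 and VWF were lower under the label, whereas the groups overlapped for KDR. The 4 genes summed to 10.9 and 14.8 CPM in control and 2.1 and 1.15 CPM under the label. Of the immune list, CD14 fell by 4.67 and CD68 rose by 0.63. The 6 genes summed to 129 to 172 CPM, of which CD68 alone took 94.7 to 170 CPM. PTPRC and LYZ had at most 0.1 and 0.14 CPM in any library, and CD3E was at 0 throughout. These shifts ran alongside every E2F value below, and their part in them was not tested. Between 52185289 and 65964558 counts fell on named genes per library, and protein-coding genes took 80.4% and 81.4% of them in control against 71.5% and 79.5% under the label.

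The promoters of the members were read to show where E2F proteins could bind their own family, since E2F genes are known E2F targets. The sequences are from RefSeq on GRCh38.p14, with 250 bases before to 50 bases after the start site. Entries were given for 8 of the 10 members, with more than 1 start for E2F3 and TFDP2. E2F5 and E2F8 had none, so their promoters were not read. The E2F word was searched in the spellings TTTCCCGC, TTTCGCGC, TTTGGCGC and TTTGCCGC on both strands, and it occurred in 3.31% of all 35116 promoters of this length. Bases just upstream of the start, ending where an annotated exon begins, are printed 5′ to 3′ on the strand of the gene for the 4 members that held a word, marked in capitals, and for E2F7 and TFDP2, which held none and which did not rise. E2F1 lies on the minus strand at chr20:33686386-33686515, E2F2 on the minus strand at chr1:23531234-23531363, the first start of E2F3 on the plus strand at chr6:20401749-20401878 and TFDP1 on the plus strand at chr13:113584623-113584720. E2F7 lies on the minus strand at chr12:77065570-77065699 and the first start of TFDP2 on the minus strand at chr3:142149545-142149674.
E2F1: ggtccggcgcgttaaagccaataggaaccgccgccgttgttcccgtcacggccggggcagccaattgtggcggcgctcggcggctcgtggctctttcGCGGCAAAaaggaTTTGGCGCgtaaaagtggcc
E2F2: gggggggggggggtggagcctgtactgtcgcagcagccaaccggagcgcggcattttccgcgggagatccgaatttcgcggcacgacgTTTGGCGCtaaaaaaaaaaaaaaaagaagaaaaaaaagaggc
E2F3: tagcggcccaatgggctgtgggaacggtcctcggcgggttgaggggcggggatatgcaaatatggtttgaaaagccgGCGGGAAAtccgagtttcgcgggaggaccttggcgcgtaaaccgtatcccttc
TFDP1: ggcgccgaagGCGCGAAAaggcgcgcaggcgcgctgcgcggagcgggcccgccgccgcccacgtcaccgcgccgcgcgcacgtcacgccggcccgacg
E2F7: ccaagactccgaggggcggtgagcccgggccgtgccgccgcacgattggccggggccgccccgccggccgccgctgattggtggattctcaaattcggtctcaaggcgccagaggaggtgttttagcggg
TFDP2: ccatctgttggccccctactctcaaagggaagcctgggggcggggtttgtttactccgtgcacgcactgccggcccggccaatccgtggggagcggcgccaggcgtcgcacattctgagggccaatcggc
E2F1 carried 2 words, which began 33 and 20 bases before its start, and only 0.145% of all promoters held 2 or more. E2F2 carried the word 42 bases, E2F3 53 bases and TFDP1 120 bases before the start. The promoters of E2F4 and E2F6 held no word either, although both transcripts rose (below), so that presence of these letters and direction of change did not go together throughout. The CCAAT box, found in 34.6% of all promoters on either strand, occurred 4 times in E2F7, 4 times in E2F3, 3 times in E2F1 and 2 times at the first start of TFDP2. The CHR word TTTGAA, found in 15.2%, occurred in E2F3 and at the other 2 starts of TFDP2. Among genes tested, 619 of 9177 with a promoter entry held the E2F word (6.75%), against 18 of 27 genes (66.7%) in a list of G1/S targets of E2F. A match is a description of letters and does not show that a factor was bound.

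**Figure D1:**
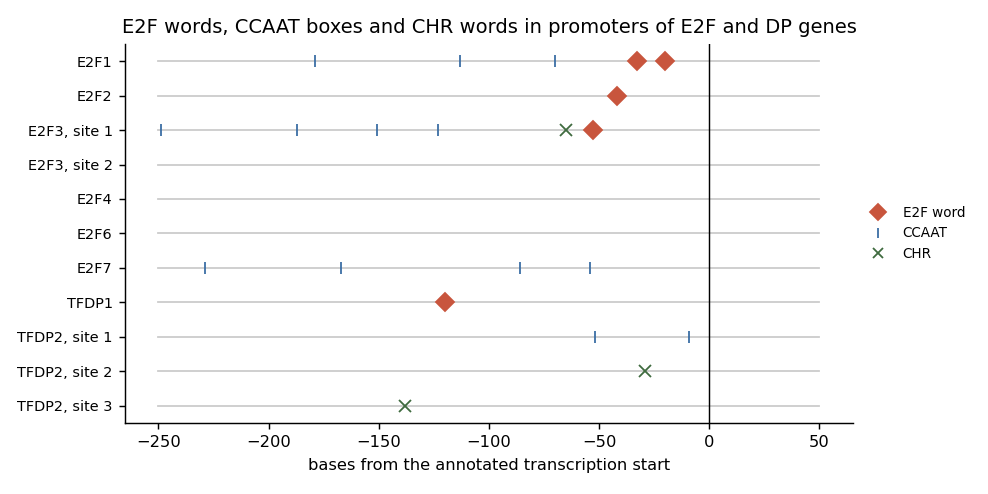
Positions of E2F words (diamonds), CCAAT boxes (ticks) and CHR words (crosses) on either strand from 250 bases before to 50 bases after each annotated start of 8 members, with distance in bases on the x axis and the start at 0. E2F words occur in E2F1 (33 and 20 bases before the start), E2F2 (42), the first start of E2F3 (53) and TFDP1 (120).

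In the comparison of the libraries labelled PRMT5 KD with control, 8 of the 10 members were called, which required an FDR (adjusted p) under 0.05 and a log2 fold change of 0.5 or more in either direction. The activators E2F1, E2F2 and E2F3, the repressors E2F4, E2F6 and E2F8 and the partner TFDP1 were higher, TFDP2 was lower, and E2F5 and E2F7 were not called. Calls were common in this comparison. Of all genes tested, 45.5% were called, 21.2% higher and 24.3% lower. Against those shares, 7 of 10 members called higher stood above and 1 of 10 called lower stood below. The 7 include E2F2, which passed the filter only because it was high under the label (0.44 and 0.406 RPKM in control). That limit applies to the count and to the median that follows. The median log2 fold change of the 10 members was 0.91, beside -0.01 over all genes tested. Scaling by total counts alone moved the median of all genes to 0.17 and the share of calls that were higher from 46.5% (2521 higher, 2896 lower) to 61.5% (3509 higher, 2198 lower). Changes are given under TMM scaling, and a call of a member or a count over a list that turns on total counts alone is given with both.

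**Figure D2:**
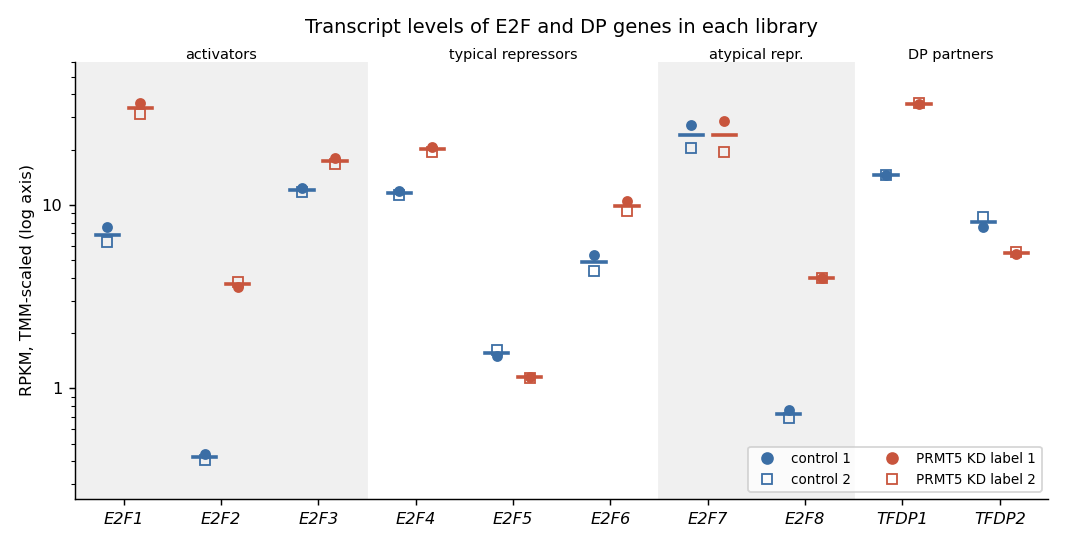
RPKM of each member (y axis, log scale) in the 2 control libraries (blue) and the 2 libraries labelled PRMT5 KD (red), with circles for replicate 1, squares for replicate 2 and a bar at each group mean. The groups stand apart for every member but E2F7. Its control values of 27.4 and 20.5 RPKM overlap the 28.7 and 19.5 RPKM under the label. The share of all genes tested whose groups stand apart was not counted, so this is not read as particular to the family.

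Among the activators, E2F1 and E2F2 changed most. E2F1, the member best known for driving S phase genes and, at high levels, cell death, had 802 and 841 counts in control and 4583 and 4034 counts under the label. Per length this was 7.53 and 6.25 RPKM against 35.8 and 31.4 RPKM, a mean of 6.89 ± 0.907 against 33.6 ± 3.14 RPKM (SD, n = 2). The groups lay far apart, and the level of E2F1 moved from percentile 53.4 of all genes tested in control to percentile 91.0. The change was 4.87-fold in RPKM, with a log2 fold change of 2.29 (SE 0.15) and an FDR of 0.00025 by edgeR, and it ranged from 2.16 to 2.46 over all alternatives. E2F1 covers chr20:33675477-33686385 on the minus strand.

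E2F2 was the lowest member in control, at 95 and 111 counts or 0.44 and 0.406 RPKM. The libraries labelled PRMT5 KD held 929 and 997 counts, or 3.58 and 3.82 RPKM. Both control values were under the minimum of 0.5 RPKM, so E2F2 was tested only because it was high under the label, which bears on its count among the members called. Its mean rose from 0.423 ± 0.0235 to 3.7 ± 0.172 RPKM (SD, n = 2), 8.74-fold, the largest change of the 10 members, at a log2 fold change of 3.13 (SE 0.16, FDR 0.000191 by edgeR). It still stood only at percentile 34.7 of all genes tested, so a large fold left a low level. E2F2 covers chr1:23506438-23531233 on the minus strand.

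E2F3, the activator with the highest level in control, moved least of the 3. It had 2543 and 3036 counts in control and 4445 and 4152 counts under the label, which were 12.4 and 11.7 against 18.0 and 16.7 RPKM. The libraries of both groups were apart, with a mean of 12.0 ± 0.485 against 17.4 ± 0.895 RPKM (SD, n = 2). The log2 fold change was 0.53 (SE 0.11, FDR 0.00777 by edgeR), just past the threshold, and the call was lost without control 1 (0.57, FDR 0.0501) and without control 2 (0.49, FDR 0.0788). E2F3 covers chr6:20401879-20493714 on the plus strand and shares its span on that strand with the transcript E2F3-IT1. The table does not separate the longer and shorter E2F3 proteins, which arise from different starts.

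The typical repressors did not move as a block. E2F4, a repressor that is mostly active in resting cells with pocket proteins, had 11.9 and 11.3 RPKM in control and 20.7 and 19.4 RPKM under the label, from 1694, 2027, 3537 and 3337 counts. Its groups did not overlap, and it rose 1.73-fold, at a log2 fold change of 0.79 (SE 0.11, FDR 0.0018 by edgeR). E2F6, which lacks the part that binds pocket proteins and instead works with a Polycomb complex, had 5.34 and 4.38 RPKM in control and 10.5 and 9.21 RPKM under the label. Its groups lay apart as well, with a 2.03-fold rise and a log2 fold change of 1.02 (SE 0.15, FDR 0.00219 by edgeR). The E2F6 estimates were not whole numbers in any library (858.845, 889.952, 2037.094 and 1790.02 counts), as such estimates are where reads are divided between features. E2F4 covers chr16:67192155-67198918 on the plus strand and E2F6 covers chr2:11444375-11466177 on the minus strand.

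E2F5, the other partner of the pocket proteins p107 and p130, ran the opposite way without passing the test. It had 356 and 482 counts in control and 331 and 326 counts under the label, which were 1.5 and 1.61 against 1.16 and 1.14 RPKM. Both values under the label were below both control values. The log2 fold change was -0.44 (SE 0.16) with an FDR of 0.0576 by edgeR, and no alternative brought it past the thresholds, its FDR ranging from 0.0522 to 0.271. E2F5 lies on chromosome 8, with RBIS overlapping it on the other strand.

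The atypical repressors E2F7 and E2F8, which switch off E2F target genes late in the cycle and are known to act as a pair, differed from each other. E2F7 was the member with the highest level in control, at 27.4 and 20.5 RPKM (6829 and 6438 counts). Under the label it had 28.7 and 19.5 RPKM (8602 and 5852 counts), so the groups overlapped entirely and the spread within each group was larger than the difference between the means of 23.9 ± 4.93 and 24.1 ± 6.56 RPKM (SD, n = 2). The log2 fold change was 0.01 (SE 0.23, FDR 0.977 by edgeR), and it ran from -0.26 to 0.27 as each library was left out. That range does not bound the change that could be missed. With an SE of 0.23 from 2 libraries per group, larger changes than these cannot be told from none either. In both groups the library numbered 1 was the higher. E2F7 covers chr12:77021248-77065569 on the minus strand.

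E2F8 was near the bottom in control, at 0.758 and 0.687 RPKM (124 and 142 counts). It had 4.02 and 3.98 RPKM (791 and 787 counts) under the label. The replicates were close and the groups far apart, a 5.54-fold rise with a log2 fold change of 2.47 (SE 0.16, FDR 0.000276 by edgeR). E2F8 transcripts were 0.0276 and 0.0336 of those of E2F7 per length in control and 0.14 and 0.205 under the label, so E2F7 remained the larger of the pair in every library. E2F8 covers chr11:19224063-19241620 on the minus strand, with CSRP3-AS1 on the other strand.

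The DP partners moved in opposite directions. TFDP1, which encodes the DP protein that most E2F complexes contain, had 14.5 and 14.6 RPKM in control and 35.4 and 35.9 RPKM under the label, from 2145, 2741, 6297 and 6431 counts. The replicates differed little and the groups were well apart, with a 2.45-fold rise and a log2 fold change of 1.29 (SE 0.10, FDR 0.000405 by edgeR). TFDP2, its paralogue, had 7.56 and 8.58 RPKM in control and 5.43 and 5.57 RPKM under the label, from 3561, 5107, 3074 and 3170 counts. Its groups did not overlap either, and it was 1.47-fold lower, at a log2 fold change of -0.55 (SE 0.12, FDR 0.00802 by edgeR). This call was lost in 8 of 18 alternatives, with -0.37 under total counts alone, -0.24 with an offset for exon length and GC content and -0.46 without control 2 (FDR 0.0781), although the sign held throughout. TFDP1 exceeded TFDP2 by 1.91 and 1.71 times per length in control and by 6.51 and 6.45 times under the label. TFDP1 covers chr13:113584721-113641473 on the plus strand and TFDP2 covers chr3:141944428-142149544 on the minus strand.

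**Figure D3:**
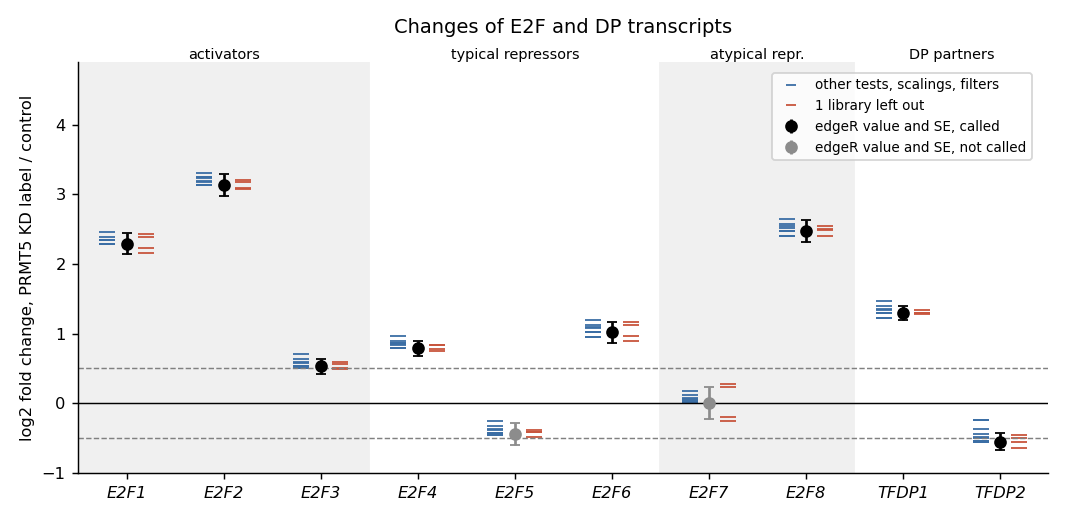
The log2 fold change of each member (y axis, libraries labelled PRMT5 KD over control) with its SE, in black where called and grey where not. The SE is derived from the edgeR test statistic. Blue dashes are the values under other tests, scalings, filters and pairings and red dashes those with 1 library left out. Dashed lines mark the fold change threshold of 0.5 in either direction, which E2F3 (0.53) and TFDP2 (-0.55) pass narrowly, and E2F7 falls on both sides of 0.

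The balance between activators and repressors was taken as the ratio of their summed RPKM in each library. Activators summed to 20.4 and 18.4 RPKM in control and 57.4 and 51.9 RPKM under the label. Typical repressors summed to 18.7 and 17.3 RPKM in control and 32.4 and 29.8 RPKM under the label, so both sums were higher there, the activators by more. The ratio of activators to typical repressors was 1.09 and 1.06 in control and 1.77 and 1.74 under the label, a log2 difference of 0.71. Against the atypical repressors, which summed to 28.2 and 21.1 RPKM in control and 32.8 and 23.4 RPKM under the label, the ratio was 0.722 and 0.868 in control and 1.75 and 2.22 under the label (log2 difference 1.32). Activators thus stood below the atypical repressors in both control libraries and above them in both libraries with the label. Against all 5 repressors the ratio was 0.434 and 0.478 in control and 0.881 and 0.976 under the label, so repressor transcripts were the larger sum in every library. The groups did not overlap in any of these ratios. The ratios were given as values and not tested, and an exact permutation of 2 against 2 libraries could not give a p below 0.33. With the length of the longest transcript in place of the exon union the ratio of activators to typical repressors was 0.849 and 0.83 in control and 1.38 and 1.35 under the label, so that its place above or below 1 in control depends on the length used.

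Among the single genes, E2F1 gained the most as a share and E2F7 lost the most. E2F1 made up 11.2% and 11.0% of the summed E2F RPKM in control and 29.2% and 29.8% under the label. E2F7 fell as a share from 40.8% and 36.1% to 23.5% and 18.5%. Its mean level was 23.9 RPKM in control and 24.1 RPKM under the label. The summed E2F level went from 67.3 and 56.8 RPKM to 123 and 105 RPKM. E2F3 and E2F4, both called higher, took similar or smaller shares under the label, at 14.7% and 15.9% for E2F3 (control 18.4% and 20.6%) and 16.9% and 18.5% for E2F4 (control 17.7% and 19.9%). E2F2 and E2F8, despite the largest folds, each stayed under 4% of the sum. E2F1 ran at 0.608 and 0.534 of E2F3 in control and 1.99 and 1.87 times E2F3 under the label.

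**Figure D4:**
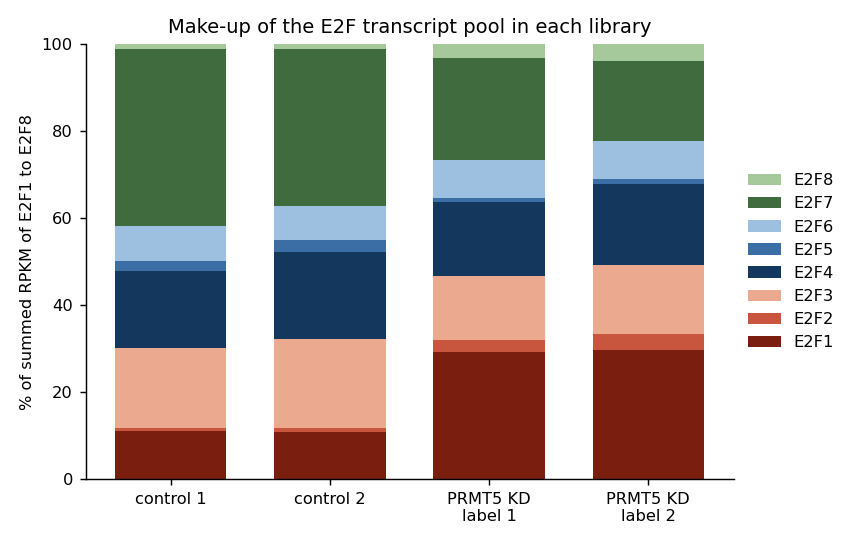
Share of the summed RPKM of E2F1 to E2F8 (y axis, %) taken by each gene in each of the 4 libraries, with activators in reds, typical repressors in blues and atypical repressors in greens. The activator share is 30.3% and 32.3% in control and 46.8% and 49.4% in the libraries labelled PRMT5 KD, and the atypical share is 41.9% and 37.3% against 26.7% and 22.3%.

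In control the order of the members by mean RPKM was E2F7, TFDP1, E2F3, E2F4, TFDP2, E2F1, E2F6, E2F5, E2F8 and E2F2. Only E2F3 and E2F4 were neighbours whose libraries overlapped. Under the label the order was TFDP1, E2F1, E2F7, E2F4, E2F3, E2F6, TFDP2, E2F8, E2F2 and E2F5. There the libraries of TFDP1 and E2F1 overlapped, as did those of E2F7 and E2F4, so that neither pair is ordered beyond its spread. E2F1 moved from place 6 to place 2 and E2F5 from place 8 to place 10.

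The genes that work with the E2F proteins were examined next, from lists written from general knowledge. Of the 3 pocket proteins, RBL1, which encodes p107 and is itself an E2F target, rose from 3.64 and 3.37 RPKM to 8.37 and 7.51 RPKM (log2 fold change 1.18, SE 0.12, FDR 0.000754 by edgeR). RB1, the retinoblastoma gene, had 18.4 and 17.2 RPKM in control and 21.8 and 21.6 RPKM under the label, a log2 fold change of 0.28 (FDR 0.0624 by edgeR). RBL2, which encodes p130 of resting cells, had 11.7 and 12.9 RPKM in control and 9.12 and 8.94 RPKM under the label. Its log2 fold change of -0.44 had an FDR of 0.015 by edgeR but missed the fold change threshold. Of the pocket proteins 1 of 3 was called, beside 45.5% of all genes. The p130 and E2F5 transcripts, whose products pair, both had values of -0.44, and neither was called. Their other partners ran the opposite way, E2F4 (with p130) at 0.79 and p107 (with E2F5) at 1.18.

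The MuvB core joins p130 and E2F4 in resting cells and B-MYB or FOXM1 in cycling cells. Of the 7 genes of the core with B-MYB and FOXM1, 6 were higher and none lower, beside 21.2% and 24.3% of all genes, with a median log2 fold change of 1.50. Under total counts alone 7 were higher. MYBL2, which encodes B-MYB and is a classical E2F target, rose from 4.13 and 3.32 RPKM to 33.7 and 30.0 RPKM, a log2 fold change of 3.10 (FDR 0.000191 by edgeR). FOXM1, the regulator of G2/M genes, had 15.2 and 9.88 RPKM in control and 34.3 and 38.3 RPKM under the label (1.53, FDR 0.00271). Of the core subunits, LIN9 rose by 2.05, LIN54 by 1.50, LIN52 by 0.96 and RBBP4 by 0.53 on the log2 scale. LIN37 had a value of 0.43 with an FDR of 0.11 by edgeR and was not called under TMM scaling.

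Of the 32 G1/S targets of E2F, all 32 were called higher, beside 21.2% of all genes, with a median log2 fold change of 1.98. These genes make cyclins, licensing factors, polymerase subunits and nucleotides for S phase, and their direction was already known when the list was written. CDC25A, the phosphatase that activates CDK2, had the highest value, from 1.48 and 1.05 RPKM to 14.5 and 14.7 RPKM (3.53, FDR 0.0002 by edgeR). The cyclin E genes rose, CCNE1 from 2.52 and 2.78 RPKM to 8.21 and 7.87 RPKM (FDR 0.000504 by edgeR) and CCNE2 by 3.19 on the log2 scale. CDC6, which loads the MCM helicase, rose by 2.02. At a log2 threshold of 1, 30 of the 32 were called. In bulk libraries more cells in S phase and more of these transcripts per cell cannot be told apart.

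E2F6 works with the Polycomb complex PRC1.6, and 6 of 12 genes of that list were higher and none lower, and the median of their log2 fold changes was 0.35. The number called in either direction was near the share of all genes (45.5%), of which 21.2% were higher and 24.3% lower. PCGF6, the ring finger subunit particular to this complex, rose from 4.06 and 4.61 RPKM to 10.2 and 12.3 RPKM (1.38, FDR 0.000874 by edgeR). L3MBTL2, a chromatin reader of the complex, rose by 0.75, and MAX, which binds E-box DNA with MGA, rose by 0.64. MGA, the scaffold, had a value of 0.07 (FDR 0.628 by edgeR). RING1 was lowest, at -0.39 (FDR 0.0384 by edgeR), short of the fold change threshold. Without control 1 the number called higher fell from 6 to 3. The germline genes that E2F6 is known to keep silent were 6 in number, none passed the filter, and the list summed to 0.354 and 0.42 CPM in control and 0.631 and 0.481 CPM under the label, with TEX11 at 0 in every library.

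Of 16 genes that modify or control E2F1 protein, 9 were higher, 1 was lower and 6 were not called, beside 21.2% higher and 24.3% lower of all genes, with a median of 0.59. PRMT5 itself is among the 9, and under total counts alone 10 were higher. PRMT1, which places asymmetric methyl marks on E2F1 in competition with PRMT5, rose by 0.52 (FDR 0.00839 by edgeR), from 27.3 and 25.8 RPKM to 39.2 and 36.9 RPKM. Cyclin A with CDK2, which end DNA binding by E2F1 in S phase, rose by 2.12 for CCNA2, the highest of the list, and by 1.93 for CDK2. SKP2 and CCNF, which encode F-box proteins linked to E2F turnover, rose by 1.88 and 1.59. FZR1, the activator of the anaphase-promoting complex in G1, had a value of -0.04 (FDR 0.758 by edgeR), whereas its inhibitor FBXO5, an E2F target, rose by 1.92. SETD7, a lysine methyltransferase that acts on E2F1, fell by 1.68 on the log2 scale (FDR 0.000792 by edgeR), from 11.9 and 13.7 RPKM to 4.62 and 3.4 RPKM.

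Of 10 genes by which E2F1 is linked to cell death, 9 were tested, of which 4 were higher, 2 lower and 3 not called, with a median of 0.25. Of all genes 21.2% were higher and 24.3% lower, and the number of this list called lower was near that share. TP73, the p53 relative through which E2F1 can act, was below the filter at 0.0112 to 0.0652 RPKM. APAF1, the core of the apoptosome, rose by 0.73 (FDR 0.00648 by edgeR), and PMAIP1, which encodes NOXA, rose from 28.2 and 18.5 RPKM to 130 and 179 RPKM (2.73, FDR 0.000976). BBC3, which encodes PUMA, had a value of -0.04 (FDR 0.898 by edgeR). TP53INP1 fell by 1.35 on the log2 scale (FDR 0.00413 by edgeR), the lowest of the list.

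**Figure D5:**
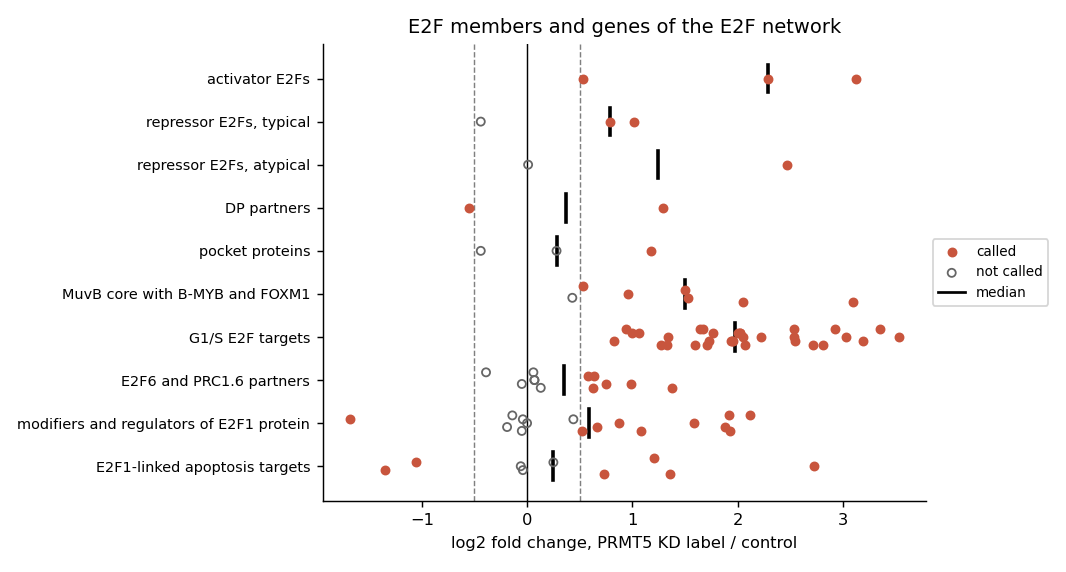
The log2 fold change (x axis, libraries labelled PRMT5 KD over control) of each tested gene in the E2F lists, filled where called and open where not, with a black bar at the median of each list and dashed lines at 0.5 in either direction. The 32 G1/S targets are all called higher and reach 3.53, while the apoptosis list spans -1.35 to 2.73.

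For each member the genes with the most similar profile were found as the nearest in centred log2 CPM over the 4 libraries, among genes whose average log2 CPM was 3 or more. For E2F1 these were the histone genes HIST2H3C (distance 0.0663) and HIST1H3F (0.104), and for E2F8 HIST1H2AM (0.0484) and HIST1H2BB (0.0529). For E2F2 they were HIST1H2BJ (0.202) and CLSPN (0.203), which encodes the checkpoint adaptor claspin, and for TFDP1 MGME1 (0.0349) and HIST1H3G (0.0465). Histone genes thus came up for 4 members that rose, with the limit that copies of these genes are nearly identical and their counts are uncertain. How often they lie nearest to other genes with a like rise was not counted, so this is not read as particular to the family. E2F3 lay nearest PRMT1 (0.0164) and PRCC (0.0198), E2F4 nearest the chaperonin gene CCT5 (0.0165) and ABCE1 (0.0225), and E2F6 nearest STARD13 (0.0448) and RRP12 (0.0649). E2F5 lay nearest TMCC1 (0.0197) and C8orf82 (0.0243), E2F7 nearest STC2 (0.0644) and CEBPG (0.0927), and TFDP2 nearest TMEM248 (0.022) and RNF141 (0.0317). With 4 libraries in 2 groups, such nearness mostly reflects a like difference between the groups.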

How the data were processed

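RNA-seq was analysed for 2 control and 2 PRMT5 KD libraries of total RNA (directional kit, Singular Genomics G4). The authors deposited estimated counts per gene, not normalized. Per the labels, the submitters' processing notes name FastQC, Trim Galore, STAR, Salmon, DESeq2 and GRCh38 without versions, whereas the study's methods name FeatureCounts on protein-coding genes. Counts were rounded, 28 gene names damaged into dates were dropped (0.15% to 0.161% of counts), and 18917 names were matched to protein-coding genes of the GENCODE annotation on GRCh38, whose exon unions gave the RPKM lengths.

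The test was the quasi-likelihood test of edgeR 4.0.16 in R 4.3.3, with TMM factors, robust dispersion and group as the only term. It covered the 11896 genes that reached 0.5 RPKM in both libraries of control or both of PRMT5 KD. FDR is the Benjamini-Hochberg adjusted p over these genes, and calls used the thresholds of the study's methods (FDR 0.05, log2 fold change 0.5 in either direction). The results section of the study instead names a log fold change of at least 1, which was used here as an alternative. Each SE was derived from that test, as the absolute log2 fold change divided by the square root of its F statistic. The procedure was tested on simulated data in which only a small part of the genes was changed, in both directions. In this comparison 45.5% of genes were called, so that test does not cover scaling or FDR under so broad a change.

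The members and lists were chosen with earlier results of these data known. Genes were named by rule: all members, PRMT5, the pocket and MuvB lists, the first 4 genes of the G1/S, PRC1.6 and apoptosis lists, 7 modifiers, the extremes of each list and the 2 nearest profiles of each member. A gene that this rule names is not reported here. Defining cell type markers and TEX11 were named outside that rule after their values were seen. Alternatives were DESeq2 1.42.0, other scalings, filters, thresholds and gene universes, a replicate block, an offset for exon length and GC content, and each library left out.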

Additional observations from a re-analysis of the deposited data

How the results depend on the processing

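E2F1, E2F2, E2F6, E2F8 and TFDP1 kept their call in all 18 alternatives, and E2F4 in all but the log2 threshold of 1. E2F5 was called in none. E2F7 changed sign with the replicate block (-0.00246), with the crossed block (-0.00212), without control 2 (-0.19) and without PRMT5 KD 1 (-0.26), the values without 1 library running from -0.26 to 0.27. TFDP2, the single member called lower, lost its call under total counts alone, filterByExpr, all gene names and the length and GC offset with and without the block, so that 0 members were called lower there. At a log2 threshold of 1, 2560 genes were called (1031 higher, 1529 lower), 5 members were called with 0 lower, and PRMT5 (0.66) was not.

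Without each library in turn, 3117 to 5708 genes were called in all, 1354 to 2765 higher and 1763 to 2951 lower, with the lowest counts without control 2. Members called ran from 6 to 8, members called higher from 6 to 7 and members called lower from 0 to 1, and PRMT5 from 0.57 to 0.78. The log2 difference in the ratio of activators to all repressors ran from 0.95 to 1.10, to typical repressors from 0.70 to 0.73 and to atypical repressors from 1.15 to 1.48. Without control 2 the apoptosis genes called lower went from 2 to 1, and with no filter the germline gene SMC1B was called higher. With no fold change threshold, RBL2 and RING1 were called lower.

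The replicate numbers are not stated to mark pairs. The deviations of the libraries numbered 1 had a correlation of -0.102 over 11896 genes, and the replicate block gave 5182 calls against 5417 and changed no member's call. A crossed pairing, chosen after seeing the data, gave 5483 calls. The cause of these differences was not tested. With 2 libraries per group, changes of the size seen for E2F3, E2F5 and TFDP2 lay near the limit of what could be called.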
